A study of Mus musculus with 15 samples.

Results

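Regulatory T cells (Tregs), sorted as Foxp3+ T cells from the thymus, were compared between dDC mice and littermate controls across all genes. The members are the 5 thymic libraries of the 15 in the series, 2 from dDC mice and 3 from controls. They were chosen by their labels, with earlier results of these data known. Of 45706 genes counted, 18423 had enough reads to be tested. The dDC line is labelled RelB-dDC. The labels do not spell this name out, and it is read here as dendritic cells that lack RelB, one of the NF-kappaB proteins. The promoter that drives the deletion is not given in the sources used here. Titles of the control libraries call them wt, and their cell type labels call them ctr. Both groups were adult mice of the strain C57BL/6, and both carried the Foxp3 reporter that the sort relied on, so the reporter is shared and does not separate them. No exact age is given. The other libraries are Tregs of the same 2 genotypes from spleen (6 libraries) and peritoneal cavity (4 libraries). The labels do not say that libraries of a group come from separate animals. The p-values therefore measure only the spread between libraries of a group, which may be technical. In the main fit that spread was estimated jointly over all 15 libraries in 6 groups, not from the 5 thymic libraries alone.

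A developing thymocyte becomes a Treg when its antigen receptor binds self antigen shown in the thymus, with interleukin 2 and TNF family signals as further inputs. The strength of receptor binding can be read from immediate early genes such as Nr4a1, Egr1 and Cd69 and from Rel, the NF-kappaB subunit needed for Treg formation. Newly made thymic Tregs carry Ccr7 and other marks of recent maturation. The adult thymus also holds Tregs that have returned from other tissues, which are marked by genes of activation and tissue residence and have lost Ccr7. Dendritic cells of the thymic medulla also show self antigen, and RelB acts in the development of some dendritic cells. Libraries of sorted Tregs do not show which dendritic cells the dDC mice had.

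The thymic libraries held 17382095 to 20877814 reads in genes. Foxp3, which defines Tregs, lay between 222 and 327 CPM in every thymic library (CPM, reads scaled to a common library size with TMM factors), and Cd8a, of the cytotoxic lineage, did not exceed 7.64 CPM. The 7 CD8 T cell markers, Cd8a among them, summed to 440, 280 and 226 CPM in controls and to 238 and 247 in dDC. One library stood apart. Along the first principal component of 500 variable genes (41.2% of the variance) dDC 1 lay at 45.2 and the other 4 libraries between -14.0 and -8.75. It had the fewest detected genes (18471, against 19653 to 21860) and the lowest correlations with the others (0.920 to 0.929). In dDC 1, 30 genes were under 1 CPM that reached at least 10 CPM in each other thymic library, against 1 to 12 such genes in the others. The second dDC library had the largest mitochondrial share, 4.72% against 3.14% to 3.80%. Results are therefore given by library, and the counts that matter also without each dDC library. Relb in the sorted Tregs lay at 20.6, 26.4 and 37.0 CPM in controls and at 37.6 and 24.2 in dDC. Because the deletion is read as one in dendritic cells, this does not check the genotype labels.

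In thymic Tregs of dDC mice the integrin gene Itgb1 lay 2.25-fold above controls, and Fam129a and Tagln2 lay above every control too. Genes of returning, effector and tissue Tregs lay higher as groups. Genes of naive T cells and of the antigen receptor response had negative medians in both dDC libraries, more so in dDC 1, and Foxp3 lay within the range of the controls. None of these differences passed the threshold gene by gene. With edgeR's quasi-likelihood test and Benjamini-Hochberg adjustment, 0 of 18423 genes passed at 0.05 (0% called), and the smallest adjusted p was 0.107. At an unadjusted p under 0.05 there were 1211 genes, 535 higher and 676 lower, where 5% of the genes tested is 921. DESeq2 called 153 genes (55 higher, 98 lower), limma-voom 0. An exact permutation of 3 against 2 libraries cannot go below p = 0.1. As a second description, a gene is called separate where the range of the 2 dDC libraries does not overlap that of the 3 controls. This held for 1669 genes higher in dDC (9.06%) and 1901 lower (10.3%), and counts within gene groups are read against these shares. The gene lists were chosen with earlier results of these data known, so counts above these shares are descriptions, not independent support. Over all tested genes the median log2 fold change was -0.03. The median standard error was 1.91 below 5 CPM and 0.21 above 100 CPM.

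The rule for named genes gave 12 higher and 12 lower genes with separate ranges, a mean of 5 CPM or more in the higher group and the smallest p. Within gene lists the 2 members with the smallest p were named by rule, and other members named were chosen after their values were seen. Itgb1 (ENSMUSG00000025809, mm10 chr8:128685654-128733200) encodes the beta chain shared by many adhesion receptors for extracellular matrix. It lay at 129, 159 and 141 CPM in the 3 controls and at 330 and 316 CPM in the 2 dDC libraries. Both dDC libraries were far above all controls and close to each other (log2 1.17, SE 0.15, edgeR adjusted p = 0.107). With spleen control 3 left out, Itgb1 alone passed, and with spleen control 2 left out it passed together with Ctsh.

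Fam129a (ENSMUSG00000026483, mm10 chr1:151571186-151721939), a stress-responsive gene, was at 306, 248 and 234 CPM in controls and at 562 and 438 CPM. Its lowest dDC library was above its highest control (log2 0.93, SE 0.15, edgeR adjusted p = 0.178). Tagln2, for an actin-binding protein, lay at 224, 197 and 227 CPM in controls against 295 and 384 in dDC (log2 0.65, SE 0.14). Fxyd5, which regulates the sodium pump and cell adhesion, was at 979, 875 and 860 CPM against 1259 and 1250 (log2 0.47, SE 0.09). For both genes the controls were tight and the dDC libraries lay above them. Ech1, an enzyme in the breakdown of unsaturated fatty acids, was at 155, 156 and 143 CPM against 260 and 232 (log2 0.70). Lclat1, which remodels the mitochondrial lipid cardiolipin, lay at 78.9, 108 and 76.3 CPM against 142 and 190 (log2 0.92). Slc35c2, of the nucleotide sugar transporter family, was at 46.5, 43.4 and 46.1 CPM against 70.5 and 89.4 (log2 0.82). The edgeR adjusted p of these 5 genes lay between 0.362 and 0.416.

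**Figure D1:**
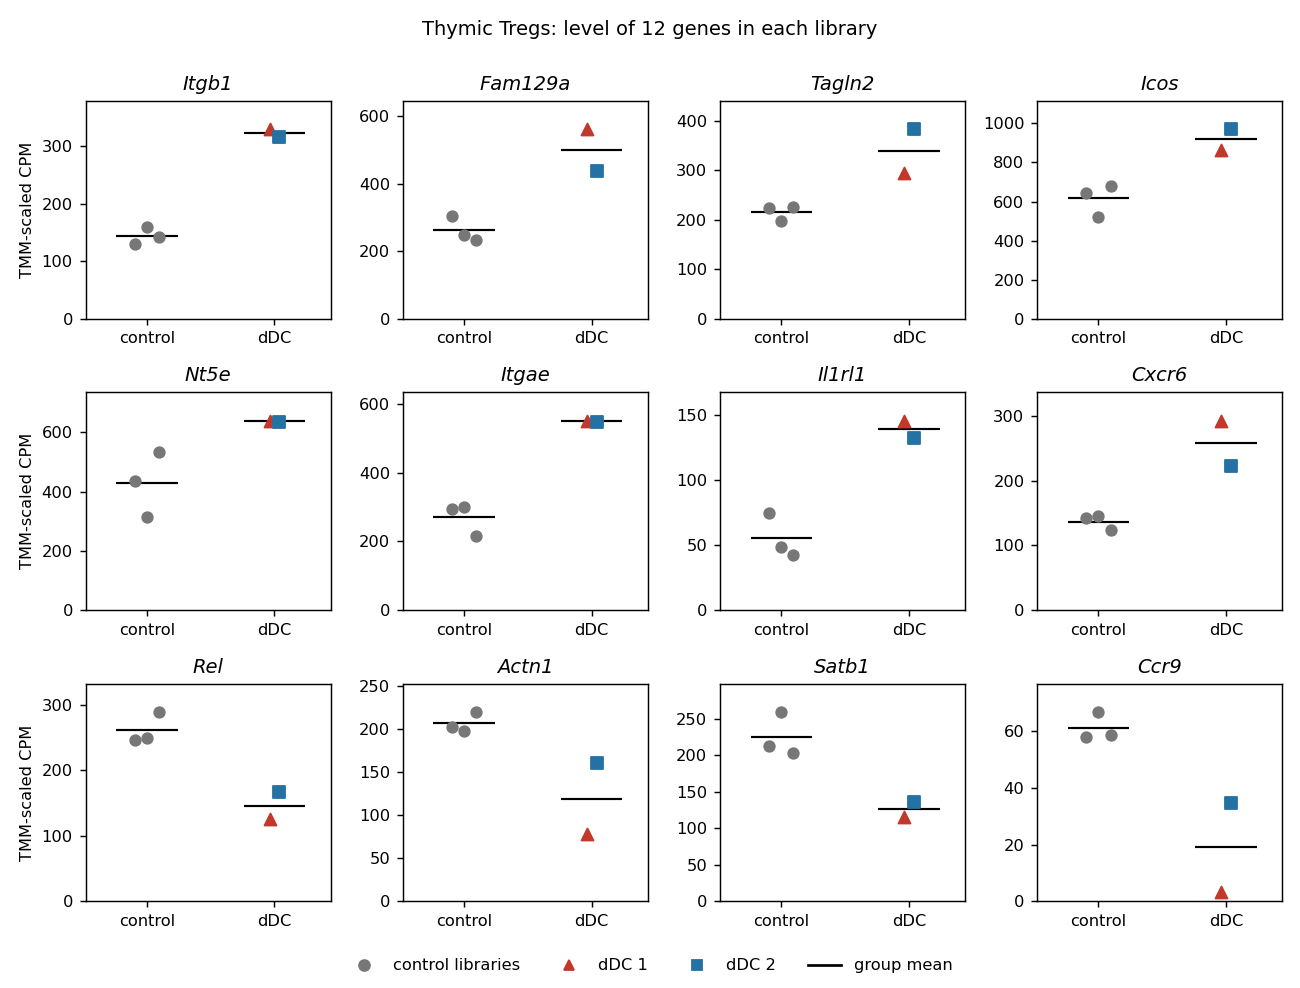
TMM-scaled CPM (linear axis from 0) of 12 genes in each thymic library. Circles are the 3 controls, the triangle is dDC 1, the square dDC 2 and the bars are group means. In each panel the dDC libraries lie outside the range of the controls, for example 330 and 316 against 129 to 159 CPM for Itgb1.

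A further 5 of the higher genes were weak, and 3 of them had almost no reads in thymic controls. F2rl1, a receptor cut open by proteases, was at 9.52, 11.8 and 8.62 CPM in controls and at 37.2 and 23.4 (edgeR adjusted p = 0.405). Kcnq5, a potassium channel subunit, was at 2.13, 1.47 and 3.39 CPM in controls and at 24.7 and 14.5 (log2 3.07, SE 0.57). In both genes the dDC libraries lay above every control, with dDC 1 the higher. Ctsh, for the lysosomal protease cathepsin H (ENSMUSG00000032359, mm10 chr9:90054152-90076089), had 3 reads in the controls together and 162 and 79 reads in dDC 1 and 2. That is a ratio of 112 with a 95% exact counting interval of 38 to 549, which covers counting error only. Xkrx, of the XK-related membrane proteins, had 1 read in controls and 179 and 106 in dDC (ratio 399, interval 71 to 15800). Asns had 2 reads in controls and 68 and 185 in dDC (ratio 177, interval 48.5 to 1470). These 3 genes were present in the other tissues: Ctsh at 12.0 to 52.3 CPM in spleen and 43.2 to 96.1 in the peritoneal cavity, Asns at 0.68 to 14.4 and 3.72 to 12.1, and Xkrx at 0.64 to 12.6 and 1.39 to 6.22. In Asns and Xkrx the thymic dDC level (3.72 and 9.08 CPM, and 9.80 and 5.20) thus lay within the spleen range and the thymic controls below it. In Ctsh the dDC level of 8.87 and 3.88 CPM was still below spleen.

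Asns makes asparagine from aspartate and is a textbook target of the response to amino acid shortage, in which the factor ATF4 acts through a composite DNA element. Pck2, the mitochondrial enzyme that makes phosphoenolpyruvate, belongs to the same response. It was chosen after its values were seen. It lay at 54.6, 49.6 and 61.9 CPM in controls against 132 and 82.8 in dDC, separate and with a log2 of 0.95 (SE 0.20, edgeR adjusted p = 0.416). The 150 bases before the start of both genes are shown (RefSeq, build GRCm38.p6, 5′ to 3′ on the gene's strand) because both carry the core of that element, searched as TGATGNAA on both strands and set in capitals. In Asns (minus strand, chr6:7693210-7693359) the match lies 23 to 16 bases before the start. In Pck2 (plus strand, chr14:55540116-55540265) it lies 103 to 96 bases before the start and reads on the opposite strand.
Asns: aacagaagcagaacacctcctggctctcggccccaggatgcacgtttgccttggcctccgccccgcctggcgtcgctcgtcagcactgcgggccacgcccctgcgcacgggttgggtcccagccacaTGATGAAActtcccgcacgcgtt
Pck2: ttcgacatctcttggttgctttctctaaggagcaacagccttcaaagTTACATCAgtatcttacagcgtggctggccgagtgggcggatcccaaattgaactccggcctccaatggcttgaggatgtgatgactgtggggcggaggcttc
Of 32851 RefSeq promoter windows (250 bases before to 50 after the start), 1304 hold this motif (3.97%). A match is a description of the letters, not evidence of binding. Of 21 genes of the amino acid response, listed after values were seen, 19 were tested, 12 had a positive log2 and the median was 0.10. The separate ones were 5 higher and 4 lower. Higher were Asns, Pck2, the tRNA synthetase gene Aars (0.79) and the stress genes Ddit3 (0.61) and Ddit4 (1.24). Lower were the tRNA synthetase gene Eprs (-0.46), Phgdh of serine synthesis (-0.51) and the amino acid carriers Slc3a2 (-0.48) and Slc7a11 (-1.60). Trib3 had the most negative fitted log2 of the 19 (-5.56), at 0, 10.1 and 12.2 CPM in controls against 0.05 and 0.25 in dDC, so its groups overlapped. The motif is shown for Asns and Pck2 only, both picked among the higher genes. The list as a whole therefore showed no single direction.

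Among the 12 lower genes, only Smc6 and Csnk1g1 exceeded 20 CPM in both groups. Smc6, of a chromosome maintenance and DNA repair complex, was at 372, 355 and 341 CPM in controls and 262 and 212 in dDC (log2 -0.59, SE 0.14). Csnk1g1, a casein kinase, was at 93.5, 79.2 and 140 CPM against 44.4 and 56.5 (log2 -1.05, SE 0.24). In both genes the 2 dDC libraries lay together below the lowest control. Manea, which trims mannose from sugar chains in the Golgi, was at 12.0, 12.2 and 15.3 CPM against 1.04 and 0.54 (log2 -4.05, SE 0.66, edgeR adjusted p = 0.202). Rhoq, a small GTPase, was at 12.1, 6.65 and 9.08 CPM against 0.55 and 0.39 (log2 -4.29). Reads of Rhoq cannot be told apart from those of Pigf where the 2 genes overlap (7.52% of its length). Auh, an enzyme of leucine breakdown that also binds RNA, was at 16.9, 31.6 and 16.8 CPM against 3.78 and 5.06 (log2 -2.30). The other 7 had log2 values between -2.02 and -1.38: Gdap10, Klhl12, an adaptor of a ubiquitin ligase, Kansl1l, Haghl, the centrosome gene Cep89, Ndufb2, a subunit of respiratory complex I, and Fem1b, a substrate receptor of another ubiquitin ligase. Overlapping genes cover 25.9% of Kansl1l and 20.6% of Haghl. The smallest edgeR adjusted p among the 12 was that of Manea.

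Genes by which Tregs that have returned to the thymus are told from newly made ones lay higher in dDC. Of 14 such genes, 7 were separate and higher and 0 lower (backgrounds 9.06% and 10.3%), and the median log2 was 0.50 against -0.03 over all genes. The medians of dDC 1 and dDC 2 against the control mean were 0.33 and 0.63. In bulk RNA, fewer cells of a type and less RNA per cell cannot be told apart. Besides Itgb1, the costimulatory receptor gene Icos lay at 646, 523 and 682 CPM in controls and 866 and 970 in dDC (log2 0.57, SE 0.20). Nt5e, for the ectoenzyme CD73 that makes adenosine, lay at 435, 315 and 532 CPM against 640 and 637 (log2 0.58). Itgae, the CD103 integrin chain of cells resident in epithelia, was at 296, 301 and 217 CPM against 553 and 549 (log2 1.02, SE 0.49). Its 2 dDC libraries were nearly equal. Il1rl1, an alarmin receptor, was at 74.9, 48.4 and 42.5 CPM against 146 and 133 (log2 1.33, SE 0.51). Klrg1, an inhibitory receptor of late effector cells, was at 43.1, 41.4 and 61.5 CPM against 79.8 and 76.3 (log2 0.68). Ccr6, a chemokine receptor used to mark returning Tregs, was at 249, 151 and 207 CPM against 273 and 281 (log2 0.45, SE 0.29). In all 7 genes both dDC libraries lay above every control. Not all members followed: Cxcr3 (-0.28), Itga4 (-0.09) and Selplg (-0.05) had negative values, and Cd44 was at 182, 222 and 220 CPM against 206 and 293, so its groups overlapped. None of the 14 passed the test over all genes.

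The tissue Treg list, which shares 5 members with the list above, gave 11 of 24 separate and higher and 0 lower, with a median of 0.43 (0.47 in dDC 1, 0.48 in dDC 2) and 19 positive values. Pparg, the factor of fat tissue Tregs, had no read in the 3 controls and 6.35 and 8.39 CPM in dDC, at least 44.2-fold higher against a floor of 3 counts per library (edgeR adjusted p = 0.746). Maf, a transcription factor of effector T cells, was at 266, 171 and 193 CPM against 346 and 302 (log2 0.63, SE 0.22). Rora, a nuclear receptor of skin and lymphoid cells, was at 113, 101 and 132 CPM against 186 and 152 (log2 0.55). Cxcr6, a chemokine receptor of tissue-resident cells, was at 142, 145 and 123 CPM against 293 and 223 (log2 0.91, SE 0.36). These 4 factors and receptors were thus higher in both dDC libraries. Gata3 was not: it lay at 590, 594 and 558 CPM in controls and at 708 and 411 in dDC, on both sides. Ccr8, Areg and Il10 had negative log2 values (-0.22, -0.91 and -0.05), and the last 2 did not exceed 7.30 CPM.

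The effector Treg list gave 15 of 30 separate and higher, 1 lower (Anxa2) and a median of 0.43 (0.38 and 0.58 by library). It shares 6 members with the list of returning Tregs and 4 with the tissue list, so the 3 counts are not independent. Several of its members encode small calcium-binding S100 proteins, and S100a11 lay at 121, 91.2 and 109 CPM against 172 and 169 (log2 0.67, SE 0.15), S100a4 at 6.35, 5.23 and 3.56 against 16.979 and 10.2 (log2 1.43). S100a10 (0.44) and S100a6 (0.54) were separate and higher as well. Lgals1, the lectin galectin-1, was at 222, 198 and 181 CPM against 292 and 272 (log2 0.50). The scaffold gene Ahnak (0.42), Crip1 (0.35) and the factor Batf (0.46) were also separate and higher. Without dDC 1 the separate and higher members of the returning, tissue and effector lists were 12, 15 and 21 (background 23.8%), and without dDC 2 they were 7, 13 and 16 (background 25.8%).

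Of the naive or resting T cell list, 9 of 22 members were separate and lower, 0 higher, 19 had a negative value and the median was -0.25. The shift was larger in dDC 1 (median -0.42) than in dDC 2 (-0.13), where 8 of 22 members were above the control mean. Summed over the list, dDC 1 (7472 CPM) lay below the controls (9064 to 11327 CPM) and dDC 2 (9798 CPM) within them. Actn1, which crosslinks actin, lay at 203, 198 and 220 CPM in controls against 77.8 and 160 in dDC (log2 -0.80, SE 0.25). Bcl2, which protects from apoptosis, was at 310, 347 and 549 CPM against 223 and 286 (log2 -0.66, SE 0.28). Satb1, a chromatin organiser needed early in Treg formation, was at 213, 260 and 203 CPM against 116 and 136 (log2 -0.83, SE 0.36). In all 3 genes the dDC libraries lay below every control, and in Actn1 dDC 1 was much the lower. Ccr7, the receptor that leads thymocytes into the medulla, was at 591, 743 and 689 CPM against 418 and 589 (log2 -0.42), with dDC 2 just under the lowest control. Tcf7 (-0.16) and Foxo1 (-0.36) were separate and lower, while Lef1 and S1pr1 overlapped and Il7r had a positive value (0.42).

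Of the 12 tested genes of newly made thymic Tregs, 4 were separate and lower and 1 higher, with a median of -0.19 (-0.44 in dDC 1, -0.13 in dDC 2). This list shares Ccr7 with the naive list. It shares 4 members with the antigen receptor response list below (Cd69, Tnfrsf9, Cd5 and Nr4a1), so the counts of these lists are not independent. Ccr9, the receptor for a chemokine of thymic epithelium and gut, lay at 57.9, 66.7 and 58.7 CPM in controls and at 3.29 and 34.8 in dDC (log2 -1.68, SE 0.81). Both lay below every control, dDC 1 by far the more. Cd5 and Hivep3 were also separate and lower (-0.24 and -0.56). The higher one was Ccr4 at 34.5, 58.8 and 26.5 CPM against 66.8 and 60.3. Rag1, the recombinase that marks the youngest cells in reporter studies, was at 6.08, 7.69 and 6.72 CPM against 9.69 and 2.85, so the groups overlapped.

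The antigen receptor response list had 8 of 23 members separate and lower and 0 higher, 21 negative values and a median of -0.51 (-0.63 in dDC 1, -0.14 in dDC 2). Its summed level was 3213 to 3566 CPM in controls, 2099 in dDC 1 and 3101 in dDC 2. Rel lay at 247, 249 and 289 CPM in controls and 125 and 167 in dDC (log2 -0.84, SE 0.25, edgeR adjusted p = 0.746). Both dDC libraries were well below the 3 controls. Cd69, an early activation antigen, was at 322, 267 and 305 CPM against 109 and 274, so that dDC 1 was low and dDC 2 lay within the controls. Egr1, an immediate early factor, showed the same split at 64.9, 109 and 87.4 CPM against 21.8 and 65.1. Junb (-0.77), Egr2 (-0.63), Nr4a2 (-1.39) and Fos (-1.23) were separate and lower, but Nr4a1, the usual reporter of receptor strength, was at 178, 315 and 294 CPM against 220 and 232 and overlapped. Without dDC 1, 9 of 23 members were separate and lower (background 20.8%), 10 of 22 of the naive list and 5 of 12 of the list of newly made Tregs. Without dDC 2 the counts were 16, 16 and 6 (background 27%). Control 1 had the highest Fos (392.06 CPM, against 169 and 127 in the other controls) and Jun (177, against 52.0 and 93.6), and also the highest level of the heat shock genes Dnajb1 (429, against 77.7 and 168) and Hspa1a (164, against 4.25 and 15.3). Without control 1, 13 of 23 members of the receptor response list were separate and lower (background 17.5%) and 1 higher (background 14.4%). The part of these control 1 levels in the result was not tested.

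**Figure D2:**
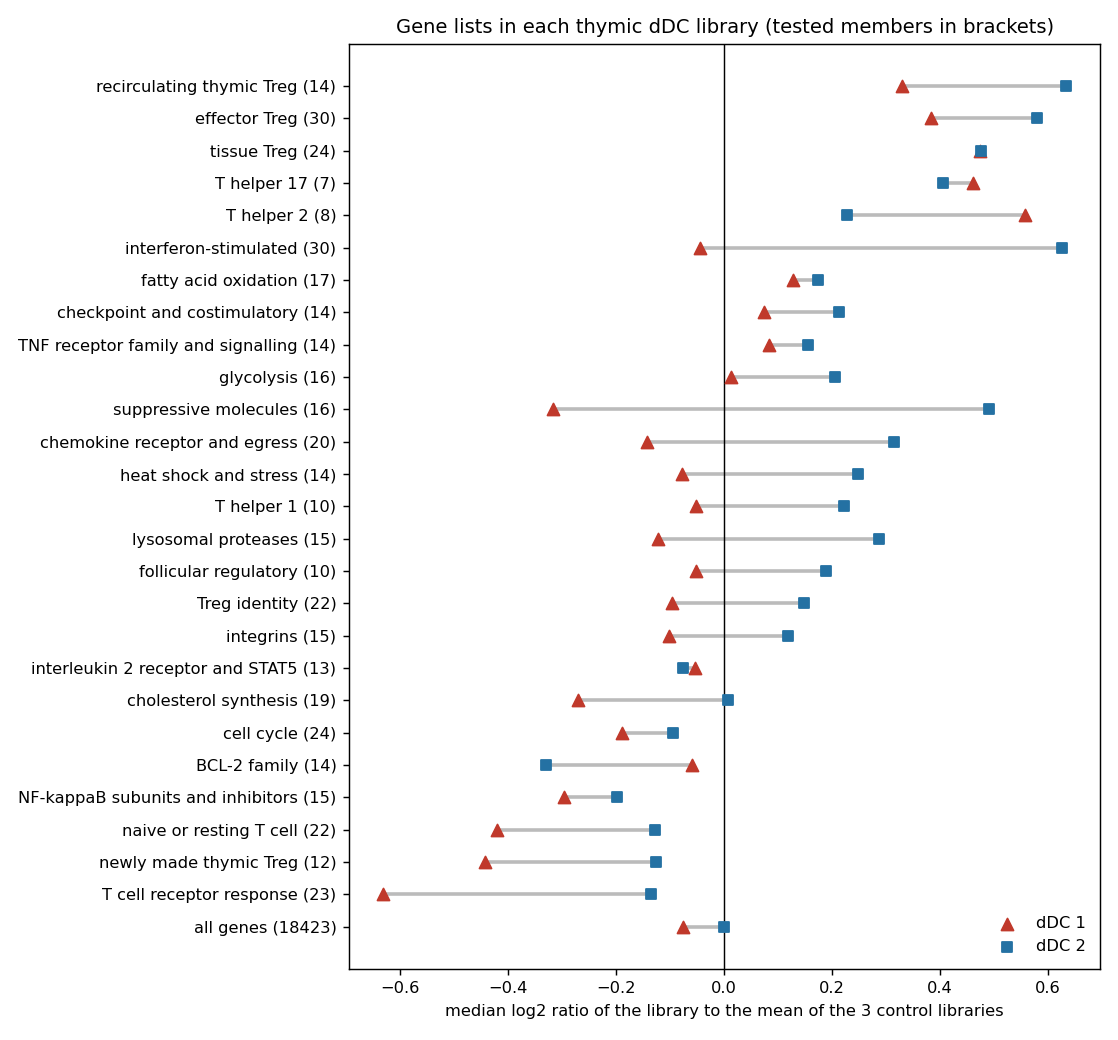
Median log2 ratio of each thymic dDC library to the mean of the 3 controls for 26 gene lists and all 18423 tested genes (x axis; number of tested members in brackets). The triangle is dDC 1 and the square dDC 2. Returning, effector and tissue Treg lists lie right of 0 in both libraries, naive, newly made and receptor response lists left in both, and the interferon list differs between them (-0.05 and 0.63).

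Treg identity genes showed no common direction, with 5 of 22 separate and higher, 3 lower and a median of -0.06. Foxp3 was at 222, 275 and 327 CPM in controls and 270 and 268 in dDC (log2 -0.03, SE 0.18), inside the control range. Overlapping genes cover 21.5% of Foxp3. Ikzf2, the Helios factor, was at 1113, 1197 and 1354 CPM against 1274 and 1019, and Il2ra, the high-affinity interleukin 2 receptor chain CD25, at 851, 825 and 1076 against 683 and 864. Both overlapped. Nrp1, a semaphorin co-receptor and mark of thymus-derived Tregs, was at 1008, 945 and 1040 CPM against 1240 and 1406 (log2 0.41, SE 0.10, edgeR adjusted p = 0.640). Ctla4, the inhibitory receptor, was separate and lower at 462, 467 and 486 CPM against 365 and 413 (log2 -0.28), as was Ecm1 at 660, 567 and 736 against 502 and 471 (log2 -0.43). Among checkpoint and costimulatory genes 5 of 14 were separate and higher, including Icos and Cd28 (508, 468 and 476 CPM against 574 and 600), and 1 lower, Ctla4.

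For the inputs of Treg formation, the TNF receptor family list had 2 of 14 separate and higher and 1 lower, Cd27 (-0.15). Tnfrsf18, the receptor GITR, was at 711, 797 and 798 CPM against 929 and 890 (27.2% of it overlaps another model), and Tnfrsf4, the receptor OX40, overlapped (log2 0.07). Of the NF-kappaB list, 3 of 15 were separate and lower, Rel, the kinase gene Ikbkb (-0.23) and the inhibitor-like gene Nfkbiz (-0.42), and 1 higher, Nfkbib (0.48). Of the interleukin 2 receptor and STAT5 list 2 of 13 were separate and lower, Bcl2 and Stat5a (168, 173 and 150 CPM against 122 and 141), and 1 higher. That was Socs3, an inhibitor of cytokine signals, at 16.8, 18.4 and 22.5 CPM against 50.2 and 28.2 (log2 1.03, SE 0.38). These shares lie near the backgrounds of 9.06% and 10.3% or rest on 3 genes or fewer.

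In the BCL-2 family, Bid, which links death receptors to mitochondria, lay at 40.4, 66.1 and 49.985 CPM against 109 and 81.9 (log2 0.88, SE 0.22, edgeR adjusted p = 0.640). With Bcl2 lower and Bid, Bcl2a1b and Bcl2a1d higher, 3 of 14 members were separate and higher and 2 lower. Bcl2a1b and Bcl2a1d are near-identical copies, so their reads are uncertain, and overlapping Bcl2l13 covers 17.7% of Bid. Of the glycolysis list 6 of 16 were separate and higher, such as the glucose carrier genes Slc2a1 (0.54) and Slc2a3 (0.60), and 1 lower, Tpi1 (93.4, 58.4 and 74.6 CPM against 47.8 and 46.7). Its median was nevertheless only 0.09. Of 19 cholesterol synthesis genes 4 were separate and lower and 0 higher, led by Msmo1 (68.6, 29.2 and 44.8 CPM against 12.4 and 26.4) and Fdft1 (28.8, 44.8 and 40.7 against 15.5 and 26.5). Fdft1 overlaps Ctsb over 26.8% of its length. Of 17 fatty acid oxidation genes, 3 were separate and higher and 1 lower.

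Cell cycle genes lay on both sides, with 3 of 24 separate and higher, 4 lower and a median of -0.49 (-0.19 in dDC 1 and -0.10 in dDC 2 against the control mean). The list median had no stable sign: it was 0.03 without control 2 and -0.56 without control 3, and 0.03 with the strict filter on low counts. Top2a, the topoisomerase of dividing cells, was at 100, 110 and 102 CPM against 52.3 and 53.9, and Mcm6, of the replicative helicase, at 62.6, 107 and 63.1 against 41.0 and 32.6. Mcm3 was separate and higher (61.5, 85.6 and 38.4 CPM against 98.8 and 97.1), and Mki67 overlapped at 12.5, 33.9 and 38.3 against 32.6 and 36.032. Interferon-stimulated genes differed between the 2 dDC libraries: the median of 30 genes was -0.05 in dDC 1 and 0.63 in dDC 2. Separate and higher were 5, such as Isg15 (63.1, 42.4 and 43.5 CPM against 81.4 and 92.5), and lower 1. Usp18 shows the split, with 441, 322 and 380 CPM in controls and 234 and 566 in dDC. The fitted median of the interferon list was 0.25, and it was -0.05 without dDC 2 and 0.60 without dDC 1.

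The same contrast was set beside spleen and peritoneal cavity, whose libraries are separate from the thymic ones. Tested as a difference of differences, 0 of 18423 genes passed against spleen (smallest edgeR adjusted p = 0.513, 932 at an unadjusted p under 0.05) and 0 against the peritoneal cavity (0.114, 1053). DESeq2 called 36 and 115. Of the 7 higher genes with at least 20 CPM in both groups, 7 were positive in spleen and 7 in the peritoneal cavity. Of all genes higher in the thymus, 52.7% and 53.9% were. Those shares cover genes of every level and were not matched to the 7, which were named for small p. Itgb1 had log2 values of 0.91 in spleen and 1.02 in the peritoneal cavity, Fam129a 0.65 and 0.75, and Tagln2 0.29 and 0.74. Of the 5 weak higher genes, 2 and 3 were positive there, and Ctsh had -0.22 and -0.13. Among the 12 lower genes 8 and 7 were negative, and of the 2 with at least 20 CPM in both groups, 1 and 2. Manea, for one, had 0.33 and -0.89.

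**Figure D3:**
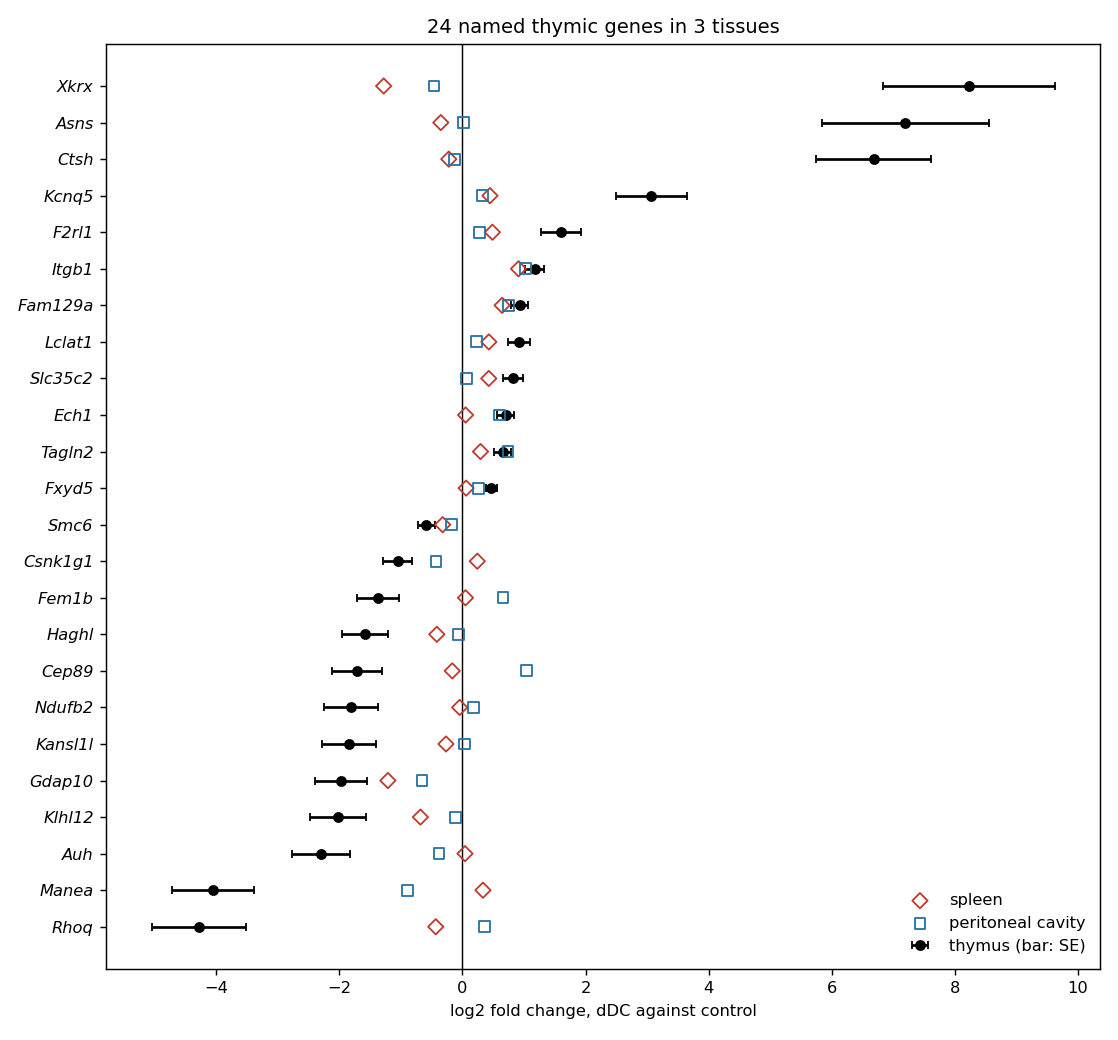
Fitted log2 fold change, dDC against control, of the 24 named genes in thymus (circles with SE), spleen (diamonds) and peritoneal cavity (squares). Itgb1 and Fam129a lie at similar positive values in all 3 tissues, whereas Xkrx, Asns and Ctsh, which had 1 to 3 reads in all thymic controls, stand far right in the thymus alone. Their fitted values depend on the prior count.

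As groups, the tissue Treg list had medians of 0.43 in thymus, 0.21 in spleen and 0.95 in the peritoneal cavity, and the effector list 0.43, 0.18 and 0.86. The list of returning Tregs had 0.50, 0.24 and 0.48, so its positive median was not particular to the thymus. For the naive list they were -0.25, -0.31 and -0.69, and for the receptor response list -0.51, -0.25 and -0.54. The list of newly made thymic Tregs had -0.19, -0.21 and 0.23. Single genes of these lists differed in sign between tissues: Cxcr6 had log2 values of 0.91 in thymus, -0.86 in spleen and 1.59 in the peritoneal cavity (edgeR adjusted p of the difference from spleen 0.965). Nt5e had 0.58, -0.01 and 0.29. No difference between tissues passed for these genes.

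Markers of other cells were not evenly spread over the libraries. Summed hemoglobin and other erythroid genes (8 in the table, Klf1 at 0) came to 159, 398 and 3.16 CPM in the controls and 1.75 and 0.88 CPM in dDC, with 4 of 7 tested members separate and lower (the hemoglobin genes), so controls 1 and 2 carried more red cell RNA than control 3 or either dDC library. With control 3 as the only control, 28.3% of all tested genes were separate and higher and 32.4% lower. Separate and higher were 15 of 24 tissue, 20 of 30 effector and 9 of 14 returning Treg genes. In these lists 4, 6 and 1 were lower. Of the naive and receptor response lists, 16 of 22 and 18 of 23 genes were lower, and 1 and 3 higher. These counts rest on 1 control, and the part of red cell RNA in the gene groups above was not tested. B cell markers (13) summed to 1390 to 1673 CPM in controls and 1928 and 1868 in dDC, of which Ighm made up most. The defining B cell gene Pax5 did not exceed 0.0575 CPM. Cd22, an inhibitory receptor of B cells, had 2 reads in controls and 30 and 155 in dDC (ratio 129, interval 35.3 to 1080).

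Double positive thymocyte markers (14) summed to 272 to 688 CPM in controls and 466 and 327 in dDC, and no member was separate. Dendritic cell markers (14) summed to 129 to 179 CPM against 143 and 187, with Itgax at 8.10, 0 and 0 CPM in controls and 0 in dDC. Macrophage markers (12) summed to 4.25 to 26.9 CPM against 4.38 and 12.96, with C1qa, Cd14 and Mertk at 0 in all 5 libraries. Thymic epithelial markers (12) summed to 16.967 to 45.8 CPM against 32.5 and 37.6, with Foxn1, Aire and Cldn4 at 0. In these 4 lists the sums of the groups overlapped, apart from the dendritic cell sum of dDC 2, which lay above the controls. Gamma delta T cell markers (6) summed to 24.3 to 41.1 CPM against 18.4 and 21.5, and Trdc, the constant region of the delta chain, was separate and lower at 14.2, 12.8 and 17.7 CPM against 5.37 and 7.56.

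**Figure D4:**
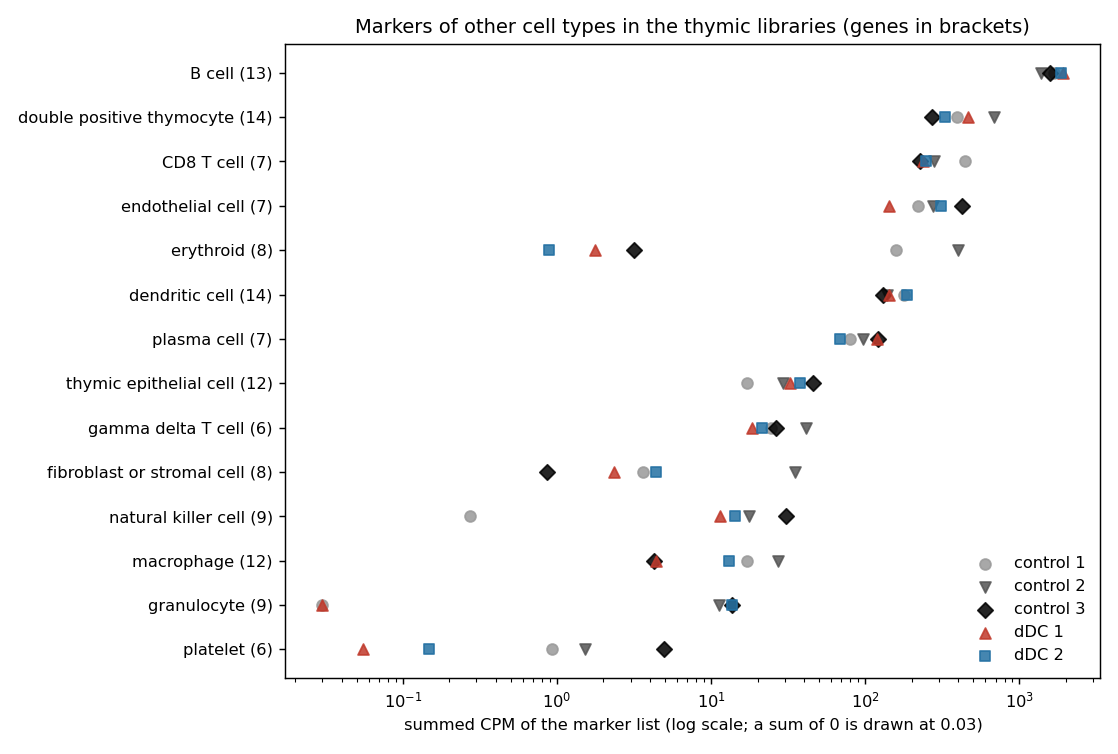
Summed CPM of marker genes of 14 other cell types in the 5 thymic libraries (log axis; a sum of 0 is drawn at 0.03). Erythroid sums of controls 1 and 2 (159 and 398) stand far above the other 3 libraries (0.88 to 3.16), and the other lists show smaller differences between groups. Platelet sums are low throughout, at 0.93, 1.53 and 4.94 CPM in controls and 0.055 and 0.15 in dDC, where both libraries lie below every control.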

How the data were processed

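Poly-A primed, template-switched cDNA was amplified for 12 cycles and the sheared libraries for 15 cycles, per the labels' protocols. This chemistry does not mark the strand and uses no molecular identifiers. The submitters' processing notes name bcl2fastq 2.19.1, GSNAP, featureCounts 1.6.0 and the build mm10. Whether counting used strand or multiply mapped reads is not stated there. The authors deposited raw counts per gene and library. The 92 spike-in rows (at most 6 reads in a library) were left out, and symbols were found for 45143 of 45706 identifiers.

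Genes were kept with filterByExpr on the 6 groups, scaled by TMM, and tested with edgeR 4.0.16 (R 4.3.3), a robust quasi-likelihood fit of group means with 9 residual degrees of freedom, two-sided. DESeq2 1.42.0, limma 3.58.1, other filters and factors, and leaving out each library were alternatives. The 26 program and 14 marker lists hold 485 genes, of which 484 were found and 447 tested. Lists are described by counts and medians without a set test. Named genes were the 12 smallest p in each direction with separate ranges and at least 5 CPM, the 2 smallest p of each list and a fixed set of Treg genes. Models without a name and antigen receptor, Y-linked, mitochondrial and ribosomal genes were not named. Other genes were added after their values were seen. The members and lists were chosen with earlier results of these data known.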

Additional observations from a re-analysis of the deposited data

How the results depend on the processing

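The count of genes that passed in the thymus was 0, and stayed 0 with RLE factors, limma-voom, sample weights, the 5 thymic libraries alone (re-filtered) and a replicate block of neighbouring library numbers (4 residual degrees of freedom). Deviations from the group mean correlated little between libraries with neighbouring numbers (r = 0.055 and 0.032 in thymus). With 2 dDC libraries the dDC deviations mirror each other, so the 2 values are not separate checks. Whether neighbouring numbers are pairs cannot be told from these values, and the main fit does not use pairs. Without a filter on low counts 3 genes passed (Ctsh, Itgb1 and Cd22), and 1 against spleen. With a strict filter (at least 5 CPM in 2 thymic libraries) 1 passed, Itgb1. DESeq2 called 153, and for the differences from spleen and peritoneal cavity 36 and 115. Leaving out 1 library at a time gave 0 to 56 in the thymus, 0 to 25 for the difference from spleen and 0 to 77 for that from the peritoneal cavity. The 56 (7 higher, 49 lower) came without thymus dDC 2, which leaves dDC 1 as a lone library assumed to vary like the other groups. Of the 49, 30 were under 1 CPM in dDC 1, and in 28 dDC 2 lay within the range of the controls. Without dDC 1 only Plekhh2 passed. The 25 also came without thymus dDC 2, and the 77 without peritoneal control 1.

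With 1 library left out, list medians ranged from 0.33 to 0.54 (tissue), 0.33 to 0.51 (effector), 0.31 to 0.61 (returning), -0.46 to -0.13 (naive), -0.44 to -0.13 (newly made) and -0.67 to -0.18 (receptor response). The sign of some named genes changed. With 1 library left out, Tox ranged from -0.58 to 0.13 (positive without dDC 1), Foxp3 from -0.16 to 0.12 (positive without control 3), Relb from -0.21 to 0.43 (negative without dDC 1 or control 1), Ikzf2 from -0.26 to 0.067, Gata3 from -0.50 to 0.29 and Rag1 from -1.26 to 0.51 (these 3 positive without dDC 2). The cause was not tested. Among values of named genes under alternatives, 1630 kept direction and side of the threshold, 39 passed it and 7 changed sign. Differences in tissue were not computed for the thymic libraries alone. Precision is lowest for weak genes, with a median standard error of 1.91 below 5 CPM.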
